A study of Mus musculus with 7 samples.

Results

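The cytosolic ribosomal protein genes were taken as every gene of the deposited table whose symbol is Rpl or Rps followed by a number with an optional final letter or digit, together with Rplp0, Rplp1, Rplp2 and Rpsa, with symbols ending in -ps left out. This rule found 88 of 48795 genes, 52 of the large and 36 of the small ribosomal subunit. Of these, 83 are annotated as protein coding and 5 (Rpl6l, Rps12l1, Rps3a2, Rps3a3 and Rps4l) as pseudogenes. Bulk RNA sequencing was performed on 7 libraries of splenic cells from female wild type C57BL/6 mice aged 8 to 12 weeks, at day 10 after intravenous immunisation with sheep red blood cells. The 3 memory B cell (MBC) libraries were sorted as B220+ CD138neg IgDneg CD38+ CD273+ and the 4 plasma cell (PC) libraries as B220lo CD138+ IgD-, after enrichment with CD43 MicroBeads. The labels do not say that replicates came from separate mice, so p-values measure only the spread between these libraries, which may be technical. Each MBC library shares a code in its title with a PC library, and the labels do not say what that title code marks. The main fits treated the libraries as unpaired.

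Each cytosolic ribosome is built from a small subunit, which reads the mRNA, and a large subunit, which joins amino acids, and each subunit carries its own set of ribosomal proteins around ribosomal RNA. Most of these proteins are present in a single copy per ribosome, and many of their mRNAs begin with a run of pyrimidines through which mTOR signalling sets how well they are translated. PCs secrete antibody at a high rate, whereas MBCs are largely resting cells that persist after the germinal centre (GC) response.

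The markers of both sorted populations were examined first. All 5 PC genes tested (Irf4, Jchain, Prdm1, Sdc1 and Xbp1) were higher in PCs and 3 of the 5 B cell genes, among them Ms4a1 and Pax5, were lower. Cd79a and Cd79b, of the B cell receptor, had log2 fold changes of -0.36 and -1.05 (limma adjusted p = 0.605 and 0.108). The library labelled MBC replicate 3 stood apart in part of its profile. Its log2 profile correlated at r = 0.70 to 0.777 with the PC libraries and at 0.681 to 0.687 with the other MBC libraries (Pearson, across genes, which are not independent). MBC replicates 1 and 2 correlated at 0.675 with each other. In MBC replicate 3 the 5 PC genes summed to 186, against 169 and 130 in the other MBC libraries and 8742 to 14574 in PCs. Its 5 B cell genes summed to 1293, against 2069 and 3308 in the other MBC libraries and 760 to 929 in PCs. Its summed scaled TPM for Cd38 and Pdcd1lg2, which encode the CD38 and CD273 of the memory gate, was 9.37, against 174 and 210 in the other MBC libraries and 12.7 to 21.3 in PCs. Its summed level of 10 proliferation genes was 1101, against 196 and 200 in the other MBC libraries and 553 to 799 in PCs. Several results are therefore also given without this library, and the others include it. In MBC replicate 2 the 6 erythroid genes summed to 4524, against 0.32 to 122 in the other libraries. The 6 T cell genes summed to 0 in MBC replicates 1 and 2, 1.08 in replicate 3 and 14.6 to 35.2 in PCs. The 6 myeloid genes summed to 1.76 to 28.4 over all libraries and the 4 platelet genes to at most 4.58. The part of these differences in the results below was not tested. One read was worth little at the levels of most members, with 6.28 to 16.4 estimated reads per TPM for a transcript of 1 kb.

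Ribosomal protein genes took a smaller share of all transcripts in PCs than in MBCs. The groups overlapped once immunoglobulin, mitochondrial genome and ribosomal RNA genes were set aside. As deposited, in TPM (transcripts relative to a fixed total per library, corrected for length), the members held 5.57%, 6.36% and 10.1% of the total in the MBC libraries and 2.51%, 3.39%, 2.55% and 3.86% in the PC libraries. The groups did not overlap. Immunoglobulin, mitochondrial genome and ribosomal RNA genes together took 42.1% ± 3.20 (SD, n = 3) of the total in MBCs and 74.7% ± 1.66 (SD, n = 4) in PCs. Immunoglobulin genes alone took 2.53% ± 0.791 and 52.4% ± 2.78, and ribosomal RNA genes 10.7% ± 5.48 and 13.4% ± 1.72. The mitochondrial share went the other way, at 28.8% ± 7.89 in MBCs and 8.86% ± 0.704 in PCs. Of the TPM outside these genes, the members held 9.90%, 11.4% and 16.5% in the MBC libraries and 10.9%, 13.5%, 9.60% and 14.5% in the PC libraries. The means were 12.6% ± 3.45 in MBCs and 12.1% ± 2.26 in PCs, and the highest value was that of the library labelled MBC replicate 3. Without that library the MBC mean was 10.6%, and PCs were higher by 1.48 percentage points instead of lower. These shares are sums over the members and carry no test. In bulk libraries, fewer cells of a type and less RNA per cell cannot be told apart.

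**Figure D1:**
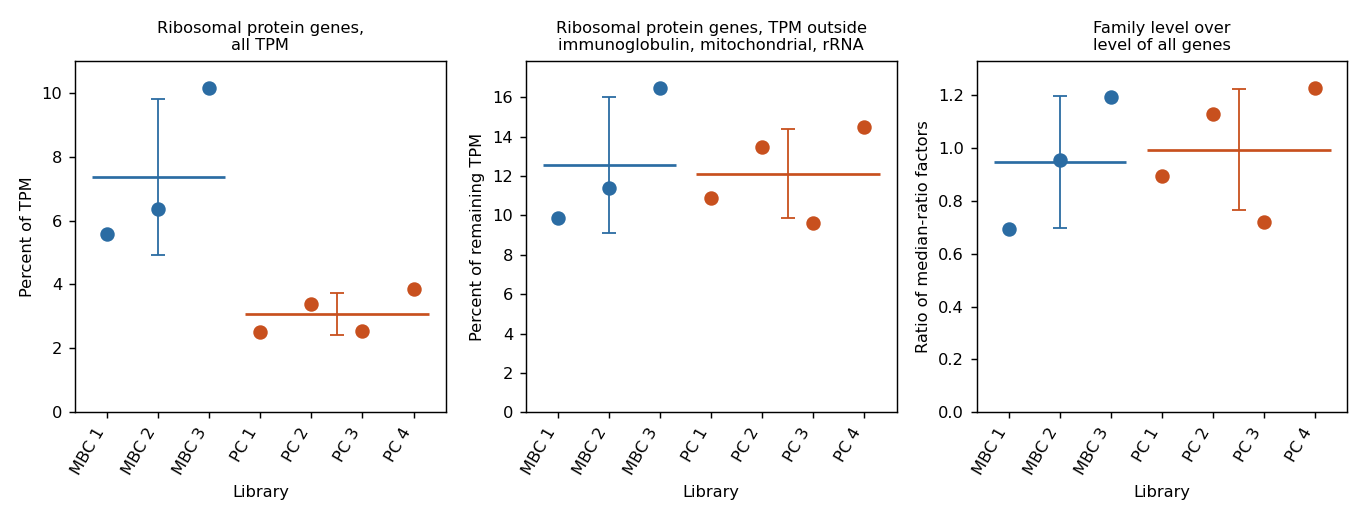
Share of TPM held by ribosomal protein genes (percent of all TPM, left, and of TPM outside immunoglobulin, mitochondrial and ribosomal RNA genes, centre) and the family level over the level of all genes (ratio, right) in each library, with MBCs in blue and PCs in orange; lines are group means and bars are SDs. PCs lie below MBCs in the left panel, at 2.51% to 3.86% against 5.57% to 10.1%, and the groups overlap in the other panels.

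For the comparison of single genes, TPM was divided by a scale factor for each library (the median ratio over genes detected in all libraries), and the values below are scaled TPM unless called TPM. On this scale the ribosomal protein genes as a family had a median fold change near 0 between PCs and MBCs, and 2 members departed from it. Of the 88 members, 85 passed the filter of at least 1 TPM in at least 3 libraries. Rpl3l and Rpl10l were listed at 0 in every library, and Rpl39l, a paralog of Rpl39, was listed at 1.01 TPM in PC replicate 3 alone. With limma and Benjamini-Hochberg adjustment over all 11573 genes tested, Rpl10 and Rps27l were higher in PCs and 0 members were lower at an adjusted p under 0.05. Both had an absolute log2 fold change over 1. A block for replicate number lost both calls, and a block for title code lost that of Rpl10. Across all genes tested, 6.41% were called higher and 2.14% lower. At an unadjusted p under 0.05 there were 3 members, all higher in PCs. The members' median log2 fold change was 0.04, beside 0.14 over all genes tested, with 46 members above 0 and 39 below. Their quartiles were -0.17 and 0.35, against -0.53 and 0.93 over all genes, and 82 of the 85 lay within 1 log2 unit of 0. For 37 of the 80 coding members tested, the 95% confidence interval of the log2 fold change also lay within 1 unit of 0.

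**Figure D2:**
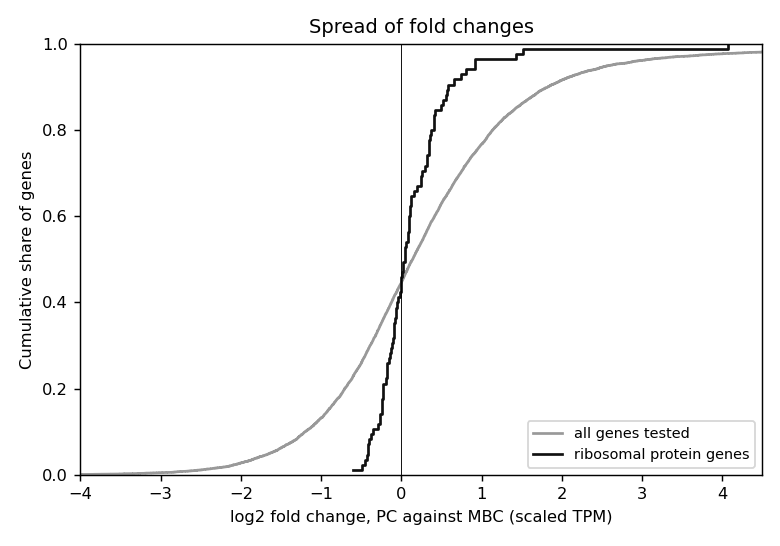
Cumulative share of genes (y axis) against log2 fold change of PCs over MBCs on scaled TPM (x axis), for the 85 ribosomal protein genes tested (black) and all 11573 genes tested (grey). The black curve is steeper, with quartiles of -0.17 and 0.35 against -0.53 and 0.93.

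The family's standing depended on the scaling. With TPM as deposited, 56 members were lower in PCs and 0 higher, where 26.1% of all genes were lower and 4.1% higher, and the members' median was -1.28 beside -0.91 over all genes. With quantile normalisation 32 members were lower and 1 was higher, and the median was -1.08. The share of all genes called with that setting is not given here, so these counts have no background beside them. Without the library labelled MBC replicate 3, 4 members, among them Rpl10, Rpl24 and Rps27l, were higher and 0 lower, where 13.8% of all genes were called higher and 7.97% lower, and the median was 0.25 beside 0.19 over all genes.

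The members rose and fell together from library to library within each group. The family level relative to the level of all genes was 0.693, 0.956 and 1.19 in the MBC libraries and 0.894, 1.13, 0.722 and 1.23 in the PC libraries. Of the 80 coding members tested, 62 had their highest PC value in replicate 4 and 69 their lowest in replicate 3, and 67 had their lowest MBC value in replicate 1. MBC replicate 3 and PC replicate 4, which have a different title prefix from the other 5 libraries, had the highest family level of their groups. They also had the highest share of ribosomal RNA, at 17.0% and 16.0% of TPM, against 7.32% to 12.8% in the others. Whether the prefix marks a batch is not given in the sources used here, and its part in the family level was not tested.

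**Figure D3:**
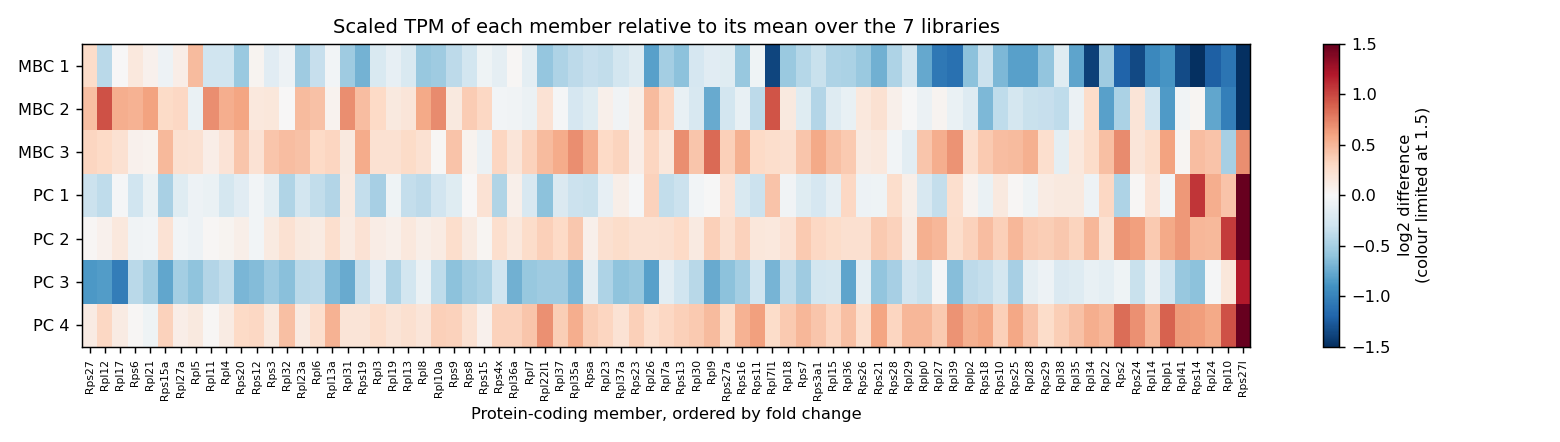
Scaled TPM of 77 of the 80 coding members tested (columns, ordered by log2 fold change) in each library (rows), as the log2 difference from that member's mean over the 7 libraries, with colour limited at 1.5. MBC replicate 1 and PC replicate 3 are low across most columns, and Rpl10 and Rps27l, at the right end, separate the groups.

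The order of the members by level was broadly shared by both cell types. The log2 group means of the 80 coding members tested had a Pearson correlation of 0.87 between MBCs and PCs, given as a description, since these points share libraries and scaling. In TPM, 75 of the 83 coding members were at 100 or more in every library. The 5 highest by mean TPM, among them Rpl10, Rps27, Rps24 and Rps4x, together held 16.3% ± 1.32 of the members' TPM in MBCs and 19.1% ± 0.913 in PCs. Large subunit genes made up 57.8% ± 1.37 of the members' TPM in MBCs and 59.4% ± 0.349 in PCs.

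Rpl10 showed the clearest departure from the family among the abundant members. Its gene lies at chrX:74270812-74273135 on the plus strand (GRCm38), and its protein joins the large subunit late, next to the site of peptide bond formation. Scaled TPM of Rpl10 was 854, 897 and 1294 in the MBC libraries and 2457, 3779, 2043 and 3531 in the PC libraries. All 4 PC libraries were above all 3 MBC libraries. The log2 fold change was 1.52 (SE 0.37, 95% confidence interval 0.70 to 2.34, limma adjusted p = 0.0329). Against the family level, for which TPM was divided by the median ratio over 83 members, it was 1.45 (SE 0.30, limma adjusted p = 0.0140), where 5.26% of all genes were higher and 1.32% lower. Expressed as a share of all ribosomal protein TPM, which a library scale factor cannot move, Rpl10 held 2.79%, 2.09% and 2.62% in the MBC libraries and 6.22%, 7.49%, 6.52% and 6.57% in the PC libraries. In this share the library labelled MBC replicate 3 sat with the other MBC libraries. On scaled TPM the call was lost when MBC replicate 1 or 2 or PC replicate 1, 2 or 4 was left out (adjusted p = 0.0601 to 0.114), and against the family level when MBC replicate 2 or PC replicate 2 was (adjusted p = 0.0623 and 0.058). A block for replicate number or for title code also lost the Rpl10 call, in both fits. As deposited, TPM of Rpl10 overlapped between the groups and the log2 difference was 0.20, while 56 other members were lower. The 13 annotated copies of the Rpl10 transcript elsewhere in the genome summed to 19.6 to 57.6 TPM, against 1331 to 2656 TPM for Rpl10.

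Rps27l had the largest fold change of any member. It encodes a close paralog of Rps27, a zinc finger protein of the small subunit, and it is known as a gene induced by p53. Rps27 lies at chr3:90212522-90213651 on the minus strand and Rps27l at chr9:66946086-66949516 on the plus strand (GRCm38). Their coding sequences are shown because the ratio of this pair differed between the cell types, and because reads from near-identical copies can be shared between genes. Both are from GENCODE M21 without the stop codon, 252 bases in 4 coding exons, and capitals mark the 60 bases at which they differ.
Rps27: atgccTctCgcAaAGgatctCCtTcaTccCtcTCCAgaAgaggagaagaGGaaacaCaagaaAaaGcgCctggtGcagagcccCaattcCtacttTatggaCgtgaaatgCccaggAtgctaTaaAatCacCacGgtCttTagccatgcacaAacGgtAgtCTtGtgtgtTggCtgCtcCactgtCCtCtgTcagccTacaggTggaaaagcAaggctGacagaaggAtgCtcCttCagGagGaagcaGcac
Rps27l: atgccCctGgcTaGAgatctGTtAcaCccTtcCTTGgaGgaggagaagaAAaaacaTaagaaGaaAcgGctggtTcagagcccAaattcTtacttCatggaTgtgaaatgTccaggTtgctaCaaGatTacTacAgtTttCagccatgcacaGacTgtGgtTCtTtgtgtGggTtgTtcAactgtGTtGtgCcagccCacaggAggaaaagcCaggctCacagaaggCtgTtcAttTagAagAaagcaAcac
The sequences are 76.2% identical, 53 of 84 codons differ, and the longest stretch without a difference is 11 bases.

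Scaled TPM of Rps27l was 1.51, 1.70 and 59.2 in the MBC libraries and 125, 157, 84.0 and 142 in the PC libraries. Both MBC libraries with the memory gate transcripts were near the floor, at about 4.42 and 4.47 estimated reads, and the library labelled MBC replicate 3 stood between them and the PCs. The log2 fold change was 4.07 (SE 0.98, 95% confidence interval 1.88 to 6.26, limma adjusted p = 0.0317), and 5.58 without that library. The call was lost when any other single library was left out (adjusted p = 0.0694 to 0.11), and against the family level when MBC replicate 1 or 2 or PC replicate 3 was (adjusted p = 0.0562 to 0.0601). A block for replicate number lost the Rps27l call on scaled TPM, and the other blocked fits kept it. The parent Rps27 moved the other way in value, with 1743, 1961 and 1798 in the MBC libraries and 1151, 1459, 794 and 1565 in the PC libraries. Its groups did not overlap, but the log2 fold change of -0.61 (SE 0.35) did not pass the test (limma adjusted p = 0.322). Rps27l made up 0.0868%, 0.0865% and 3.19% of the TPM of the pair in the MBC libraries and 9.79%, 9.73%, 9.57% and 8.33% in the PC libraries.

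**Figure D4:**
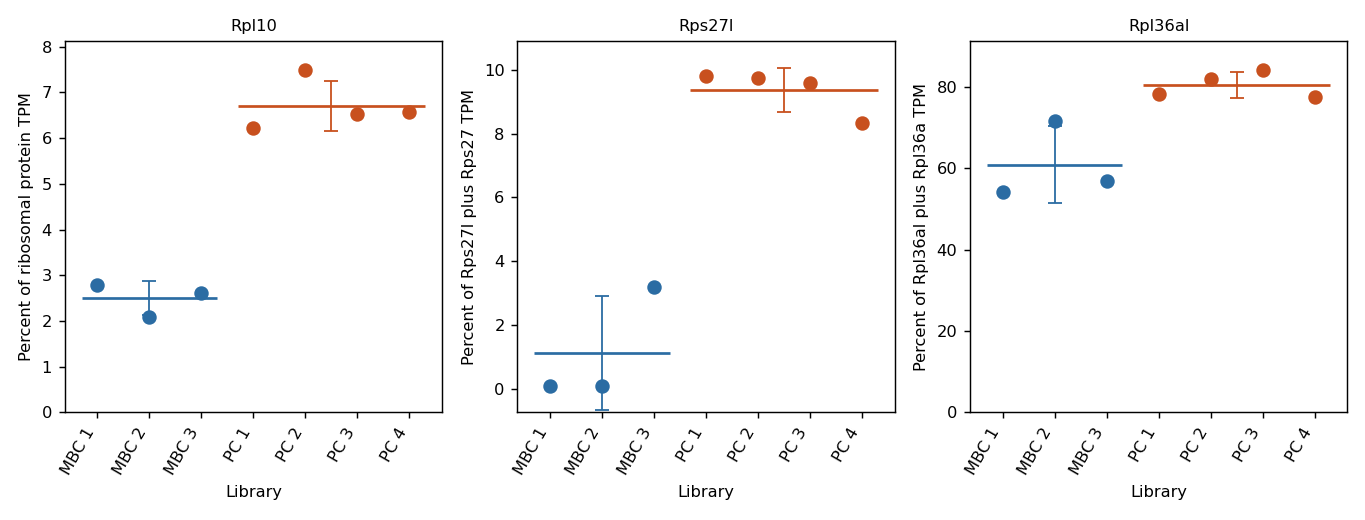
Rpl10 as percent of all ribosomal protein TPM, Rps27l as percent of Rps27l plus Rps27, and Rpl36al as percent of Rpl36al plus Rpl36a, in each library (MBCs blue, PCs orange, lines for means, bars for SDs). In each panel the PC libraries lie above the MBC libraries, with Rpl10 at 6.22% to 7.49% against 2.09% to 2.79%.

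Another paralog pair shifted in the same direction. Rpl36al, a copy of Rpl36a whose coding sequence lies in 1 exon and which the symbol rule does not include, made up 54.1%, 71.7% and 56.9% of the TPM of the pair in MBCs and 78.2%, 82.0%, 84.2% and 77.5% in PCs. The groups did not overlap. By itself Rpl36al differed by 1.31 on the log2 scale (SE 0.35, limma adjusted p = 0.0494). That call was lost when MBC replicate 1 or 3 or any 1 PC library was left out (adjusted p = 0.0506 to 0.152). Against the family level Rpl36al had 1.24 and was not called (limma adjusted p = 0.056), and with TPM as deposited it had -0.0083. On scaled TPM Rpl36a had -0.08 (adjusted p = 0.91). The coding sequences of the pair, of 318 bases, are 87.7% identical, so the split of reads between these genes is less certain than for Rps27 and Rps27l. The remaining pairs did not separate the groups. Rpl22l1, a paralog of the RNA-binding protein Rpl22, made up 28.6% ± 8.94 of its pair in MBCs and 21.1% ± 5.68 in PCs, and Rpl7l1 made up 2.55% ± 2.01 and 2.41% ± 0.807 of its pair with Rpl7. Rps4l stayed under 0.20% of its pair with Rps4x.

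At the low end of the fold changes stood Rps27, Rpl12, Rpl17, Rps6 and Rpl21, none of which passed the test. Rps6, the small subunit protein phosphorylated by S6 kinase, was at 847, 1096 and 792 in MBCs and 619, 731, 575 and 768 in PCs. Its groups did not overlap, and the log2 fold change was -0.43 (SE 0.30, adjusted p = 0.416). In all, 4 members (Rpl21, Rpl27a, Rps27 and Rps6) were lower in every PC library than in every MBC library, where 8.68% of all genes were, and 2 (Rpl10 and Rps27l) were higher, where 13.0% of all genes were. Annotated copies of Rpl27a held more TPM than Rpl27a itself in every library (89.6 to 617 against 61.8 to 268). Relative to the family level, 7 members were higher without overlap (among them Rpl10, Rpl14, Rpl24, Rpl35, Rplp2 and Rps27l; 12.6% of all genes) and 6 lower (Rpl12, Rpl27a, Rps15a, Rps27, Rps3 and Rps9; 5.7% of all genes).

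**Figure D5:**
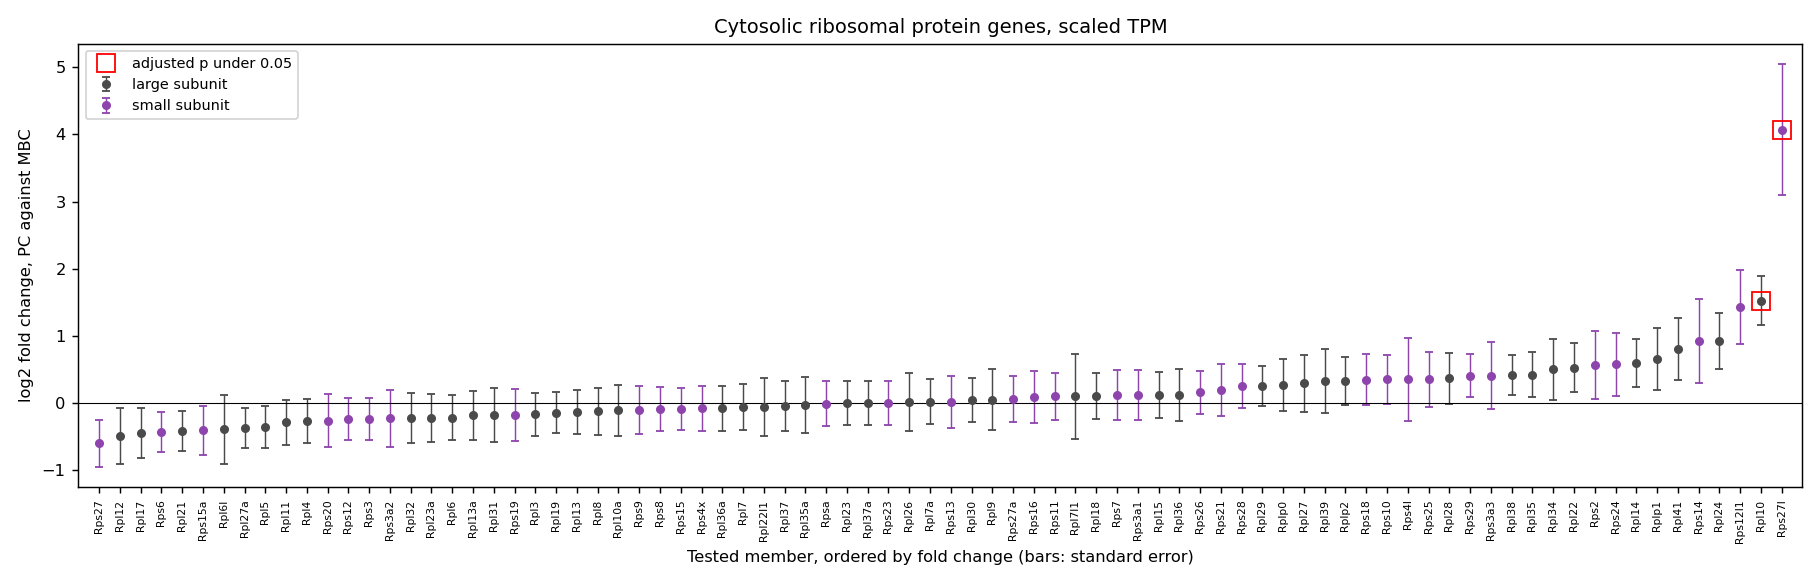
log2 fold change of PCs over MBCs on scaled TPM for 82 of the 85 members tested, ordered by value, with standard errors; grey points are large subunit genes, purple points small subunit genes, and red squares mark an adjusted p under 0.05. Rpl10 (1.52) and Rps27l (4.07) are marked, and most others lie between -1 and 1.

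Below the called genes at the high end came Rps12l1, an annotated pseudogene, and then Rpl24, Rps14 and Rpl41. Rps12l1 had a log2 fold change of 1.42 (adjusted p = 0.151). It was listed at 0 in all MBC libraries and in PC replicate 3 and at 1.44 to 2.40 TPM in the other PC libraries. Rps12l1 was called only without PC replicate 3 (adjusted p = 0.0409). It passed the filter only through the PC libraries in which it was listed above 0, so that call is not independent of the filter and no conclusion is drawn from it. Rpl24, which joins the large subunit late in its assembly, was at 144, 198 and 457 in MBCs and 498, 477, 335 and 504 in PCs. The library labelled MBC replicate 3 lay within the PC range and the other MBC libraries below it. The log2 fold change was 0.92 (SE 0.42, adjusted p = 0.211), and 1.40 without that library (adjusted p = 0.0171). The call therefore rested on leaving 1 library out.

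By place in the ribosome, 0 members of the stalk, 5S particle, exit tunnel, mRNA entry or mRNA exit lists passed the test, against 6.41% of all genes higher and 2.14% lower. The P stalk recruits the elongation factors. Its proteins Rplp0, Rplp1 and Rplp2 had log2 fold changes of 0.26, 0.66 and 0.32, and Rpl12, at its base, had -0.49. Rplp1 was at 248, 255 and 697 in MBCs and 446, 682, 373 and 849 in PCs, so the groups overlapped only through the library labelled MBC replicate 3.

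Rpl5 and Rpl11, which carry 5S ribosomal RNA into the large subunit and bind Mdm2 when free, had -0.36 and -0.29. Annotated copies of Rpl5 held more TPM than Rpl5 itself in every library (346 to 1977 against 102 to 480), so its value is uncertain. Rpl11 was at 482, 963 and 636 in MBCs and 554, 603, 436 and 600 in PCs, so the groups overlapped. The 9 exit tunnel genes (Rpl4, Rpl17, Rpl19, Rpl22, Rpl23a, Rpl26, Rpl31, Rpl35 and Rpl39) ran from -0.45 for Rpl17 to 0.52 for Rpl22, with a median of -0.15. At the mRNA entry, Rps2, Rps3 and Rps9 had 0.56, -0.24 and -0.11.

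At the mRNA exit, Rps14 had 0.92 (adjusted p = 0.40) and Rpsa, Rps26 and Rps28 had -0.01, 0.15 and 0.25. Rps14 was at 70.5, 304 and 414 in MBCs and 628, 421, 195 and 464 in PCs. PC replicate 3 fell below 2 of the 3 MBC libraries. A list of 9 genes among those mutated in Diamond-Blackfan anaemia, an inherited failure of red cell production, had a median of 0.11, with 0 called. Rps27a, which is made as a fusion with ubiquitin, had 0.06. Fau, which the symbol rule leaves out and which is made as a fusion with a ubiquitin-like protein, had -0.50.

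The start of transcription was examined because many ribosomal protein mRNAs begin in a pyrimidine run. RefSeq promoters (GRCm38.p6, 250 bases before to 50 after the start) matched 63 of the 83 coding members. A run of 8 bases that are all C or T, within 10 bases of the start on the sense strand, was found in 21 of the 63 (33.3%) and in 8.65% of the other 26962 genes. The motif CGGAAGT, on either strand, was also found in 21 (33.3%) and in 7.14% of the others. The 30 bases around the start are shown as examples for Rps6 and Rps27 and for the called genes Rps27l and Rpl10, with the longest run of C and T in capitals and the first transcribed base at position 16.
Rps6: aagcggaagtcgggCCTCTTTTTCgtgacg
Rps27: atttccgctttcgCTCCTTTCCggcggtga
Rps27l: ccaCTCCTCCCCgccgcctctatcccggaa
Rpl10: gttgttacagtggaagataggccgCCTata
The windows are chr4:86857353-86857382 and chr3:90213634-90213663 on the minus strand, and chr9:66946071-66946100 and chrX:74270801-74270830 on the plus strand. The run in Rps6 and Rps27 spans the start, that in Rps27l ends before it, and Rpl10 has no run longer than 3 bases in this window. RefSeq gives Rps27l another start, with the window chr9:66946398-66946427, where the longest run is 4 bases. The run of 9 bases in the first Rps27l window begins 12 bases before the start, outside the limit of 10, and was not counted. Among members that were not called, Rpl36a and Rplp0 had no run longer than 5 bases in their windows (log2 fold changes -0.08 and 0.26). For Rps6, Rps27 and Rpl10 the RefSeq start is not the outermost base of the annotated gene, so a run at another start would be missed. A match is a description of the letters and not of a bound site.

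Introns of ribosomal protein genes often hold small nucleolar RNA (snoRNA) genes. The 30 coding members tested with a snoRNA gene inside them had a median log2 fold change of -0.11 with 19 below 0, and the other 50 had 0.11 with 18 below 0. Hosts made up 41.0% to 42.7% of the members' TPM in MBCs and 39.1% to 42.9% in PCs, so their share overlapped. Shorter transcripts had slightly higher fold changes. The Pearson correlation with log2 length across the 80 genes was -0.25, as a description of points that share libraries.

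Genes that work with the ribosome were read from the same fit. Pelo, which rescues stalled ribosomes, was the only one of these lists' genes to pass the test. Its value was 0 in both MBC replicate 1 and MBC replicate 2, and it was at 2.89 in the library labelled MBC replicate 3, and at 5.47, 10.8, 10.4 and 9.27 in PCs (log2 fold change 2.63, SE 0.62, limma adjusted p = 0.0302). The call was lost when MBC replicate 1 or 2 or PC replicate 2, 3 or 4 was left out (adjusted p = 0.0762 to 0.102). Its partner Hbs1l had 1.46 (adjusted p = 0.097), and Ascc3 and Rnf10, which act on collided ribosomes, had 1.36 and 1.21. The 10 rescue and quality control genes had a median of 1.28 with 1 called, beside 6.41% of all genes tested higher and 2.14% lower. Without the library labelled MBC replicate 3, 2 were called higher and 1 lower (Hbs1l, Pelo and Zfp598), beside 13.8% and 7.97% of all genes tested.

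The 79 mitochondrial ribosomal protein genes tested had a median of 0.77, against 0.14 over all genes tested, with 61 above 0 and 0 called. The smallest adjusted p-values, 0.068 to 0.095, belonged to Mrpl57, Mrpl51, Mrps28 and Mrpl43, with log2 fold changes of 2.11, 3.31, 3.32 and 1.88. Without the library labelled MBC replicate 3, 22 of the 79 were higher, beside 13.8% of all genes tested, and their median was 1.13, against 0.19 over all genes. The proliferation genes named above were high in that library, and their part in this was not tested. The 36 initiation factors had a median of 0.39 and the 10 elongation and termination factors -0.06, with 0 called in both. Without that library 4 initiation factors were called higher and 1 lower (Eif2b2, Eif2s1, Eif3d, Eif4g3 and Eif6), beside 13.8% and 7.97% of all genes. The elongation and termination factors still had 0 called. Eif6, which keeps the subunits apart until the large one is mature, had 2.36 (adjusted p = 0.135), and 3.58 without that library (adjusted p = 0.00337). Eef1a1, which delivers tRNA, was at 1678, 2312 and 1810 in MBCs and 1646, 1777, 1546 and 1867 in PCs, and the groups overlapped.

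Eef2, which drives translocation, had -0.34, and Pabpc1, the poly(A)-binding protein, had -0.61 (adjusted p = 0.246). Mtor had 1.10 (adjusted p = 0.15), its target Eif4ebp1 1.32 (adjusted p = 0.108), and Larp1, which binds pyrimidine-run mRNAs, -0.12, among 18 controllers of ribosomal protein mRNA translation with a median of 0.19. The 8 dedicated chaperones of ribosomal proteins had a median of 0.58, with Ltv1, an assembly factor of the small subunit, at 1.52 (adjusted p = 0.191), and the 4 ribosome-bound proteins tested -0.02, with Rack1, a scaffold on the small subunit, at 0.07. The 4 genes of the free ribosomal protein response (Cdkn1a, Trp53, Mdm2 and Mdm4) had 1.96, -0.72, 0.40 and -0.14, with 0 called. Without the library labelled MBC replicate 3, Ltv1 and Cdkn1a were called higher, and Akt1s1, among the controllers, lower. Of all genes tested, 13.8% were then called higher and 7.97% lower.

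Named pseudogenes and other copies of the members took part of the signal. Of 276 named pseudogenes, 91 were tested, with a median of -0.06 and 0 called. The 943 annotated copies that match a member's transcript at 90% identity or more over 150 bases held 8.82% to 11.7% of the TPM of members and copies together, and reads shared with them could have been split either way by the authors' counting. The share differed between members, and copies of Rpl5 and of Rpl27a held more TPM than the gene itself in every library.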

How the data were processed

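Libraries of the 7 samples were prepared with a cDNA kit from Nugen and read on an Illumina HiSeq instrument. Per the labels, the submitters' processing notes name STAR 2.5.2a, RSEM 1.3.0, DESeq2 1.18.1 and GRCm38. The deposited values are TPM, made by the authors for each gene and library. TPM sums to a fixed total in each library, so a few very abundant transcripts lower all others. No counts were used. TPM was divided by the median ratio of each library to the geometric mean over 9305 genes above 0 in all libraries, and log2(scaled TPM + 1) was tested with limma 3.58.1 (R 4.3.3; lmFit, eBayes with trend) in genes at 1 TPM or more in at least 3 libraries. Fold changes are on the log2(value + 1) scale and understate changes of low genes. A second fit scaled TPM to the median ratio over 83 members. Calls were made at an adjusted p under 0.05, by Benjamini-Hochberg over all 11573 genes. The scripts were tested on simulated data. Of 100 genes outside the family given a log2 change of 4, 65% were called, and of 100 given a change of 2, 17%. Of 11373 unchanged genes, 7 were called. A gene that was not called can therefore still differ between the groups. The read depth was estimated from the steps between low TPM values, of which 76.5% to 84.0% lay within 0.15 of a whole read (30% by coincidence), so no reads were taken as recovered and no count test was run; a count of 3 reads of a 1 kb transcript corresponds to 0.183 to 0.478 TPM, for counting error only. Copies were found with BLAST 2.17.0. No 2 libraries held the same values, with at least 99.32% of genes differing in each pair.

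The members and lists were chosen with earlier results of these data known. Genes named are those called in either fit, the 5 highest by mean TPM, the structural and paralog lists, Rps6 and Rps27a, and for other lists those of smallest adjusted p with Rack1, Eef1a1, Eef2, Pabpc1, Larp1, Mtor and Fau; a few genes under these rules are not reported here. Rps27, Rpl21, Rpl24, Rpl41, Rpl14, Rpl27a and Rps15a were also named after their values were seen. Alternatives were other scalings, pseudocounts and filters, leaving out each library, and blocks for replicate number or title code.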

Additional observations from a re-analysis of the deposited data

Results flagged for a closer look

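In the 4 PC libraries, 52 results were examined for a library far from the others (Dixon's test at 95%, which flags about 1 in 20 by chance), and 9 were found. PC replicate 3 was the low library in 7 of them. Its scaled TPM was 335 for Rpl24 (477 to 504 in the other PC libraries), 708 for Rpl41 (1640.4 to 1657), 249 for Rpl21 (334 to 346), 289 for Rps28 (492 to 522), 175 for Rpl26 (362 to 392), 382 for Rpl31 (701 to 735) and 175 for Rps27a (311 to 325). Since the members move together within a library, these are not separate events. PC replicate 1 was high for the share of Rpl7l1 in its pair with Rpl7, at 3.61% against 1.87% to 2.10%, and PC replicate 4 was low for the share of Rps27l in its pair with Rps27, at 8.33% against 9.57% to 9.79%.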

How the results depend on the processing

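The family's standing depended on scaling. With TPM as deposited 56 members were lower and 0 higher (median -1.28), where 26.1% of all genes were lower and 4.1% higher. With quantile normalization 32 members were lower and 1 higher (median -1.08), and the share of all genes called is not given here. Among genes around the ribosome, TPM as deposited gave 0 higher and 43 lower (median -0.76), quantile normalization 7 lower, and removal of immunoglobulin, mitochondrial and rRNA genes 0 higher and 1 lower. With that removal the difference in ribosomal protein share went from -4.28 to -0.47 percentage points, and to 1.48 when MBC replicate 3 was also left out (chosen after seeing the data).

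Adding the annotated copies to the members, an alternative chosen after seeing the data, left Rpl10 and Rps27l called in both fits. The number of members higher (2 as reported) was 0 with no filter, 1 with no trend, 0 with a replicate block and 1 with a title code block. The replicate block lost both calls (adjusted p = 0.16 for Rpl10 and 0.0646 for Rps27l) and the title code block lost Rpl10 (0.117) and kept Rps27l (0.0254). Against the family level (2 as reported) it was 0 with no filter, and 1 with no trend, with the replicate block and with the title code block, where both blocks lost Rpl10 (adjusted p = 0.0887 and 0.0801) and kept Rps27l. In these fits PC replicate 4 has no same-numbered partner, and PC replicate 2 no partner of the same title code, so neither adds to the difference. Genes around the ribosome (1 higher as reported) gave 0 with pseudocount 0.1, no filter, the replicate block or the title code block, and 13 with the more frequent title prefix only. The prefix setting leaves out MBC replicate 3 and PC replicate 4, and its share of all genes called is not given here. Deviations of libraries with the same number correlated at 0.109, -0.04 and -0.083, so the numbers were not taken to pair them, and with 3 pairs not every library correlated best with its own number. Libraries with the same title code correlated at 0.109, -0.004 and 0.222. MBC replicates 1 and 3 correlated best with the PC library of their title code and MBC replicate 2 did not, and the labels do not say what the code marks.

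Leaving out 1 library gave 0 to 4 members higher, 0 lower and a median of -0.15 to 0.25. Against the family level it gave 0 to 3 higher, 0 lower and a median of -0.05 to -0.00. Around the ribosome it gave 0 to 30 higher, 0 to 3 lower and a median of 0.34 to 0.68. The 30, like the 4 members, came without MBC replicate 3, where 13.8% of all genes tested were called higher and 7.97% lower. The shares of all genes with other libraries left out are not given here. The share difference ranged from -5.18 to -2.89 points, Rps27l in its pair from 7.72 to 9.27, Rpl36al from 16.2 to 24.99, Rpl22l1 from -10.3 to -2.33 and Rpl7l1 from -1.03 to 0.95.

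Among the single genes followed through the alternatives, sign changes with a call on either side were Rpl10 at -0.77 with quantile normalization, Rpl36al at -0.0083 with TPM as deposited and -0.11 with quantile normalization, and Rack1 at -1.25 with TPM as deposited. The cause was not tested. Of 695 values for single genes under alternatives, 600 stayed on their side of the threshold, 54 lost a call, 37 gained one and 4 are those reversed. Over all members, 43 of the 46 above 0 fell below 0 with TPM as deposited, 18 of them called lower, among them Rps26 at -1.17 (0.15 as reported) and Rps27a at -1.26 (0.06 as reported). With quantile normalization it was also 43 of 46, with 6 called lower. With 3 and 4 libraries and about 4 reads for Rps27l in MBC replicates 1 and 2, depth limits low genes most.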
